A study of Homo sapiens with 9 samples.

Results

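HepG2 is an established line from a human liver tumour whose cells still make many hepatocyte products. It was given PQY09, which the series title names as Butyrolactone I, and its RNA was compared with that of cells given the solvent. The comparison uses the 3 libraries labelled PQY09 (50 µM) and the 3 labelled DMSO (0.1%), which are 6 of the 9 libraries of the series, and the 20157 of 60612 listed genes whose counts passed a filter on low values. The other 3 libraries come from cells given 50 µM PQY23_1, named as a derivative, and enter here for the shared estimate of spread and for a comparison of parent and derivative at the same dose. No genetic change is named in the labels. The sources used here state neither the exposure time nor whether compound wells also held DMSO. No label ties replicates to separate cultures, so p-values here rest on the spread of these libraries alone, which may be technical.

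Butyrolactone I is a metabolite of the mould Aspergillus terreus and an inhibitor of some cyclin dependent kinases. This family of enzymes drives cells through division, and its members CDK7 and CDK9 help RNA polymerase II to start and elongate transcripts. Which members the compound blocks in these cells was not measured. Immediate early genes such as JUN, FOS and EGR1 are transcribed soon after a signal reaches the nucleus, need no newly made protein for it, and encode short-lived transcription factors and RNA-decay proteins. Hepatocytes devote much of their transcription to secreted plasma proteins, to lipid synthesis, and to the cytochrome P450, glucuronosyltransferase and glutathione transferase enzymes that clear foreign compounds.

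The counts summed to between 85050531 and 107538450 per library. All 10 hepatocyte markers were measured, and together they took 31100 to 35100 CPM in the DMSO and PQY09 libraries. Marker sums are taken over the deposited library totals without TMM scaling. The CPM of single genes is edgeR's counts per unit of library size, TMM-scaled. The 16 markers of blood, endothelial, stromal, glial and heart muscle cells summed to 86.9 to 106 CPM, with CD3E and HBB at 0 in every library. Over genes, the correlation of log2 CPM was 0.9667 to 0.9723 between libraries of a group and 0.964 to 0.9696 between DMSO and PQY09 libraries. The share of counts on mitochondrially encoded genes was 13.4% ± 0.742 (SD, n = 3) under DMSO and 13.3% ± 1.11 under PQY09, a difference of -0.115 percentage points that lay within the spread (two-sided exact permutation p = 0.9; 3 against 3 cannot go below 0.1).

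The genes called were a small part of the transcriptome. By edgeR's quasi-likelihood test with Benjamini-Hochberg adjustment, 574 of 20157 genes (2.85%) were called at an adjusted p below 0.05, 358 higher under PQY09 (1.78%) and 216 lower (1.07%). At an unadjusted p below 0.05 the same test passed 3144 genes, 1707 higher and 1437 lower. The count called therefore does not measure how many genes changed. For every gene called, the 3 libraries of one group all lay above the 3 of the other, which was true of 24.4% of all genes tested. A gap between the groups of a called gene, where given below, therefore adds no support to its call. Most changes were small: 293 of the 574 were under 1.5-fold, 168 lay between 1.5-fold and 2-fold, 113 reached 2-fold (79 higher, 34 lower) and 22 reached 4-fold. The median change over all genes was 0.003 on the log2 scale and the median absolute change was 0.2, against 0.577 among the called. Fold changes below are log2 values ± SE and compare 3 libraries per group. The SE is the absolute log2 fold change over the square root of the test's F. It is a model value that draws on the spread of all 9 libraries and is moderated across genes. Intervals between the compounds rest on an SE made in the same way. They are not adjusted for the number of genes tested, as the calls are, so an interval can leave out 0 without a call. Libraries are listed in the order of replicates 1, 2 and 3.

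Calls depended on the level of a gene. They made up 0.307% of genes with a mean under 1 CPM, 2.63% of those from 1 to 10 CPM, 3.96% of those from 10 to 100 CPM and 7.83% of those above. Protein coding genes were called in 3.79% of cases and other genes in 0.737%. Each chromosome held between 1.28% (chromosome 15) and 4.05% (chromosome 21) called genes. Refits without DMSO replicate 1, 2 or 3 called 309, 235 and 289 genes, and those without PQY09 replicate 1, 2 or 3 called 263, 307 and 278. It was 1464 with DESeq2's test, and 196 genes (119 higher, 77 lower) were called in each of the 9 refits that left out 1 library. Where a call is said to be lost, it was no longer made in those of the 9 refits that are named or counted.

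**Figure D1:**
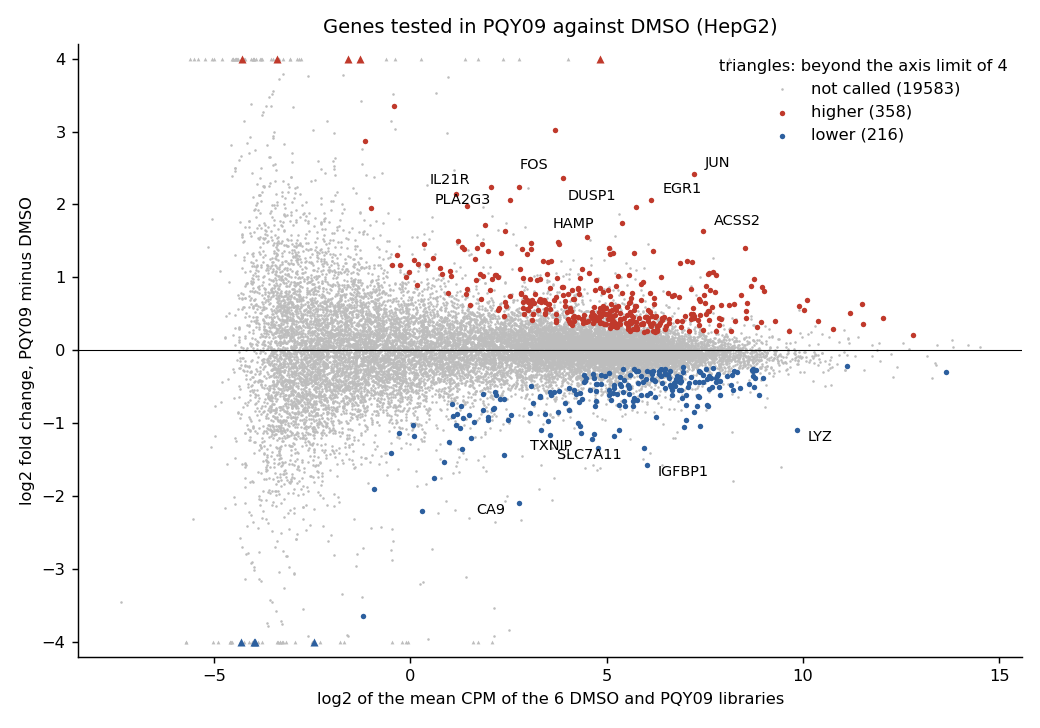
Each point is 1 of 20157 genes, with its mean level in the DMSO and PQY09 libraries on the x axis (log2 CPM) and its log2 fold change on the y axis. The 358 genes called higher (red) and 216 called lower (blue) lie mostly within 1 log2 unit of 0 and become rare at low levels, and JUN stands out among well expressed genes.

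By annotated place and activity, genes for secreted proteins and for oxidoreductases held the largest shares of called genes among 14 classes, a description without a test. Of 622 genes annotated to the extracellular space, 9.49% were called, 35 higher and 24 lower, against 3.54% of the 11937 genes with any annotation. Oxidoreductases, the enzymes that move electrons between substrates, had 31 of 428 members higher and 5 lower. Peroxisomal genes had 7 of 97 higher and 1 lower, and genes for proteins of the endoplasmic reticulum membrane 26 of 709 higher and 13 lower. Genes for RNA-binding proteins had 10 of 1228 higher and 23 lower, and those of the nucleolus 6 of 650 higher and 11 lower. The shares called in these classes, 2.69% and 2.62%, were below that of all annotated genes, and the difference in direction was not tested. Genes for DNA-binding transcription factors had 10 of 437 higher and 4 lower. Protein serine/threonine kinases had 3 higher and 3 lower of 229.

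**Figure D2:**
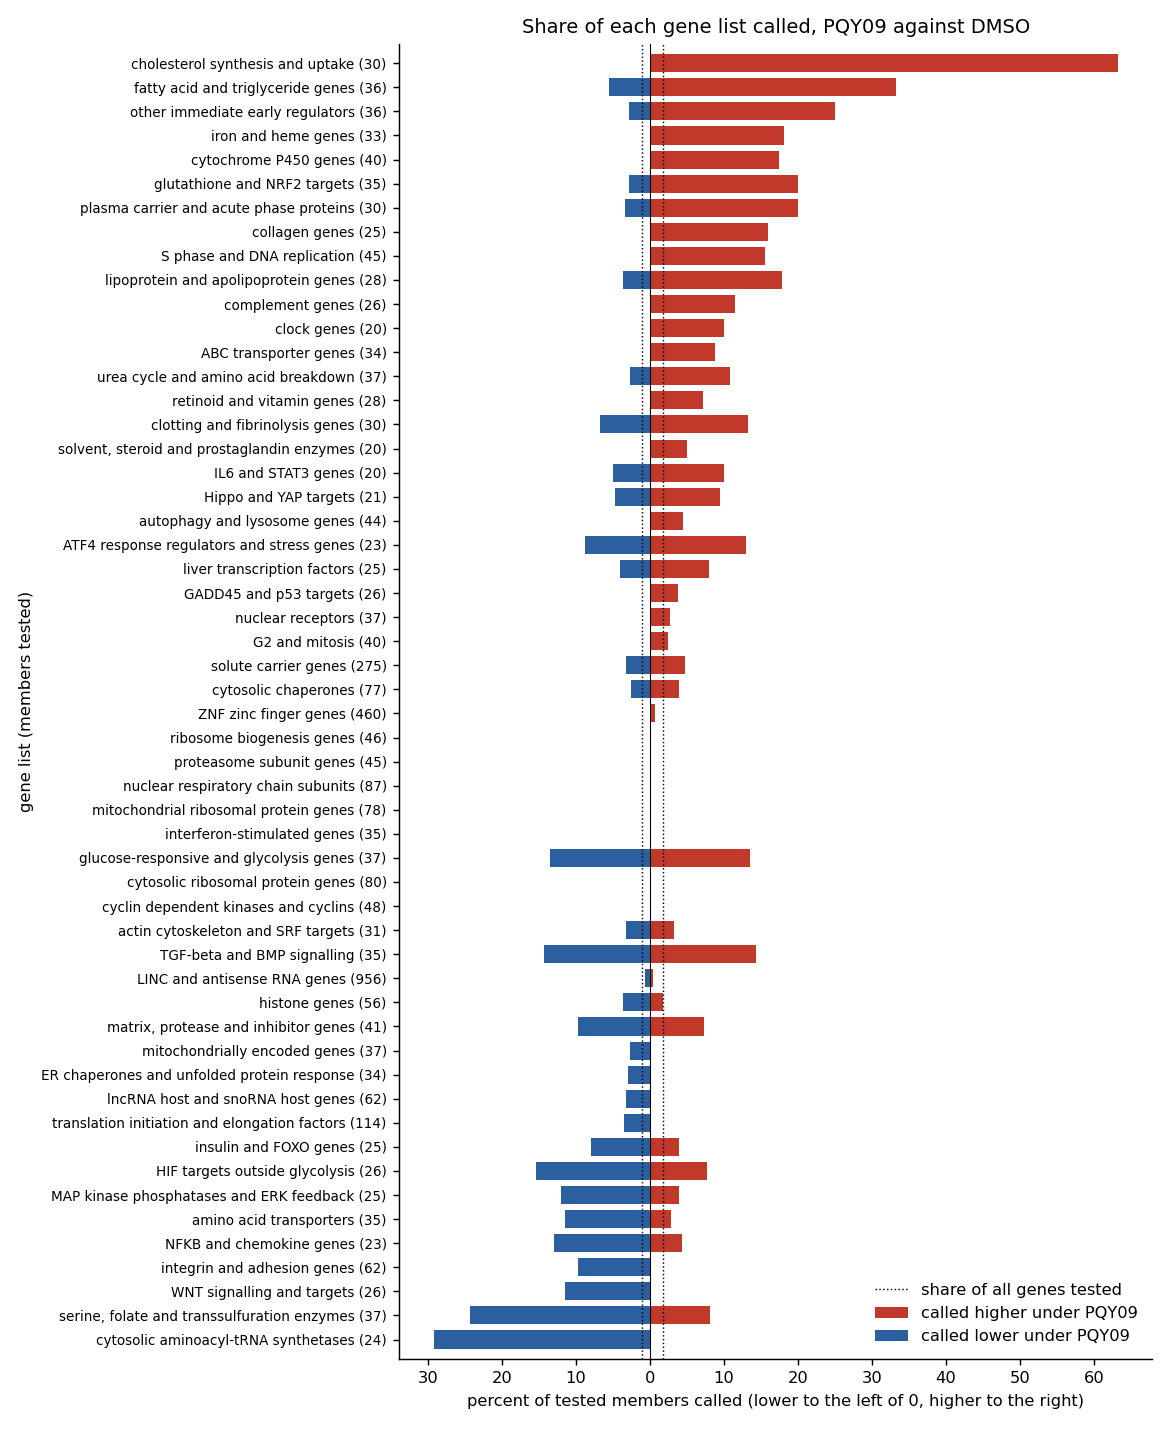
Bars give the percent of each gene list's tested members called higher (red, right of 0) or lower (blue, left of 0) under PQY09, for lists with at least 20 members tested. The dotted lines mark the shares over all genes, 1.78% and 1.07%. Lipid synthesis and immediate early lists sit at the top, and cytosolic tRNA synthetases and serine and folate enzymes at the bottom.

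Several immediate early genes rose 4-fold to 5-fold, among the 15 largest rises at 5 CPM or more. Of 17 genes for AP-1 subunits, the basic leucine zipper proteins that pair to bind AP-1 sites, 5 rose (median of the list 0.23). JUN, the AP-1 subunit (chromosome 1, 58780791 to 58784047, build hg38), was at 49.7, 44.9 and 47.7 CPM under DMSO and 245, 239 and 275 CPM under PQY09. It rose 5.34-fold (log2 2.42 ± 0.11, adjusted p = 8.1e-05), each PQY09 library being far above each DMSO library. FOS, the usual partner of JUN, was at 7.03, 5.12 and 2.45 CPM under DMSO and 22.4, 23 and 29.3 CPM under PQY09. It rose 5.12-fold (log2 2.36 ± 0.34, adjusted p = 0.0089), with DMSO replicate 3 the lowest library. FOSB was at 3.8, 2.32 and 1 CPM under DMSO and 9.98, 9.45 and 14.3 CPM under PQY09 and rose 4.74-fold (log2 2.25 ± 0.44, adjusted p = 0.034; lost in 5 of 9 refits, adjusted p up to 0.13); it shares its region with ERCC1. JUNB rose 1.99-fold (log2 1 ± 0.16, adjusted p = 0.015; lost without DMSO replicates 2 or 3 or PQY09 replicates 1 or 3, adjusted p up to 0.073). ATF3, a stress-responsive member of the family, rose 2.52-fold (log2 1.33 ± 0.21, adjusted p = 0.013; lost without DMSO replicate 2 or PQY09 replicate 3, adjusted p up to 0.058). The AP-1 genes JUND (log2 0.23 ± 0.12, adjusted p = 0.42), FOSL1 (log2 0.19 ± 0.2, adjusted p = 0.74) and FOSL2 (log2 -0.17 ± 0.1, adjusted p = 0.47) were not called.

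Among 36 other immediate early regulators 9 rose and 1 fell (median 0.21). EGR1, a zinc finger factor, was at 35, 25.1 and 21.7 CPM under DMSO and 111, 103 and 128 CPM under PQY09. It rose 4.18-fold (log2 2.06 ± 0.2, adjusted p = 0.0013), the lowest PQY09 library lying well above the highest DMSO library. ZFP36, which destabilises AU-rich messenger RNAs, rose 2.32-fold (log2 1.21 ± 0.12, adjusted p = 0.0013), from 7.71, 6.12 and 6.87 CPM under DMSO to 16.2, 14.4 and 17.5 CPM under PQY09. The orphan nuclear receptor NR4A1 rose 2.34-fold (log2 1.22 ± 0.16, adjusted p = 0.0049). It was the 1 gene called among 37 nuclear receptors (2.7%, near the 2.85% of all genes). RHOB, a short-lived small GTPase, rose 1.84-fold (log2 0.88 ± 0.06, adjusted p = 3e-04). The matricellular gene CCN1 rose 2.65-fold (log2 1.41 ± 0.15, adjusted p = 0.0021), and the clock regulator BHLHE40 1.59-fold (log2 0.67 ± 0.08, adjusted p = 0.0033). KLF9, a glucocorticoid-responsive repressor, fell 1.25-fold (log2 -0.32 ± 0.06, adjusted p = 0.035; lost in 8 of 9 refits, adjusted p up to 0.14). IER2 (log2 0.64 ± 0.25, adjusted p = 0.26), KLF6 (log2 0.85 ± 0.33, adjusted p = 0.26), IER3 (log2 0 ± 0.08, adjusted p = 0.99) and MCL1 (log2 -0.06 ± 0.06, adjusted p = 0.7) were not called, so the list did not move as a block.

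The promoters of 6 early genes are printed as examples, not in order of their change; those of ATF3, NR4A1 and ZFP36, not shown, held no TGACG. The sequences are the 250 bases before the RefSeq start (assembly GRCh38.p14), 5′ to 3′ on the gene's own strand. Capitals mark matches on either strand to TGACG (a cyclic AMP response element without its second part), TGACGTCA (the full element), TGACATCA (a variant AP-1 site), CCAAT (the CCAAT box), TATAAA (the TATA box) and CACGTG (the E box), and to the CArG box that binds serum response factor. JUN lies at chr1:58784048-58784297, minus strand, FOS at chr14:75278578-75278827, plus strand, FOSB at chr19:45467746-45467995, plus strand, JUNB at chr19:12791236-12791485, plus strand, EGR1 at chr5:138465229-138465478, plus strand and DUSP1 at chr5:172771196-172771445, minus strand.
JUN: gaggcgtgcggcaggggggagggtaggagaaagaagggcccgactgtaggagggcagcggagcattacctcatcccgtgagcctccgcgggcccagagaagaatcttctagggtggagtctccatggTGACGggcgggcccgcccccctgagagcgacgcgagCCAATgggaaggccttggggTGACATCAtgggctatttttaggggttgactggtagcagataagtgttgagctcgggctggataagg
FOS: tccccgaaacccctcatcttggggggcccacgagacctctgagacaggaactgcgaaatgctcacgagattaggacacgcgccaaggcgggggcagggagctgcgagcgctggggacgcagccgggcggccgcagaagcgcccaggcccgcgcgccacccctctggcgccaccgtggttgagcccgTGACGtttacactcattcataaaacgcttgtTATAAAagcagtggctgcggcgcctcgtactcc
FOSB: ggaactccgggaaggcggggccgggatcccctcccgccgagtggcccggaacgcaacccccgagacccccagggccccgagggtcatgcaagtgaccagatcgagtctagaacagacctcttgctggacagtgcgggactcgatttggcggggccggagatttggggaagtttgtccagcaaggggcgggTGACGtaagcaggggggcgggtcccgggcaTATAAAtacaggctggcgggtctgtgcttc
JUNB: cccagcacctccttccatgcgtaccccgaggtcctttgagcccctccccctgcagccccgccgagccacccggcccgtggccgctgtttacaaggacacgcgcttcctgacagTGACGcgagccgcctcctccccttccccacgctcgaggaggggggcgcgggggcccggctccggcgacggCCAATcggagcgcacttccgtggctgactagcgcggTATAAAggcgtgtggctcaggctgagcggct
EGR1: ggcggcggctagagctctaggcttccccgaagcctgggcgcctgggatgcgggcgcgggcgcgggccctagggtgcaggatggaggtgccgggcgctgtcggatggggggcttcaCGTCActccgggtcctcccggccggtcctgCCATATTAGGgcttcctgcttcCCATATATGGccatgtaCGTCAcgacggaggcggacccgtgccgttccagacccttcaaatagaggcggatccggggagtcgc
DUSP1: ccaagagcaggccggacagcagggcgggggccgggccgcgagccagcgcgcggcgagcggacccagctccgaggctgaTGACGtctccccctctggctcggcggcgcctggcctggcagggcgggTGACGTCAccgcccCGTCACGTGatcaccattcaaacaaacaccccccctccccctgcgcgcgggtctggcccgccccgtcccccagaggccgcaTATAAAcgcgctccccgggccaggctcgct

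TGACG occurred in the promoters of 4 of the 5 AP-1 genes that rose (JUN, FOS, JUNB and FOSB) and in 3 of 7 with a sequence among the other early regulators that rose (RHOB, EGR1 and BTG2), where 21.7% of 27305 promoters of this length hold it. TGACG was not particular to early genes. Of called genes with a sequence, 4 of 6 S phase genes that rose and 3 of 6 cytosolic tRNA synthetases that fell held it. It lay in 0 of 5 glucose-responsive genes that rose. These shares were not tested. EGR1 carried 2 CArG boxes, a motif present in 1.14% of promoters, and no other early gene that rose and has a sequence had one in this window. TGACATCA lay in the JUN and ATF3 promoters and in 2.45% of all. DUSP1 carried 1 TGACGTCA, found in 1.77% of promoters, which includes a TGACG on each strand, and its E box overlaps a further TGACG. The motif TATAAA was present in FOS, FOSB, JUNB and DUSP1, and in 11.1% of all promoters. These matches describe the sequence and are not evidence of binding.

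Genes that restrain MAP kinase signalling or are targets of ERK signalling moved in both directions. DUSP1, the phosphatase that dephosphorylates JNK and p38 and is itself an immediate early gene (chromosome 5, 172768096 to 172771195), was at 26, 19.5 and 20.2 CPM under DMSO and 81.3, 77.3 and 98.4 CPM under PQY09. It rose 3.91-fold (log2 1.97 ± 0.15, adjusted p = 0.00036), with no library between the groups. ETV4, an ETS factor and a target of ERK signalling, was at 239, 244 and 228 CPM under DMSO and 145, 140 and 139 CPM under PQY09 and fell 1.67-fold (log2 -0.74 ± 0.05, adjusted p = 0.00031). SPRED2, an inhibitor of RAS to ERK signalling, fell 1.42-fold (log2 -0.51 ± 0.06, adjusted p = 0.0048), and so did the JNK phosphatase DUSP16 (log2 -0.35 ± 0.06, adjusted p = 0.018; lost in 5 of 9 refits, adjusted p up to 0.073). In all, 1 of 25 members rose and 3 fell, with a median of -0.26. The ERK phosphatase DUSP6 was not called (log2 -0.27 ± 0.13, adjusted p = 0.37), nor was ETV5 (log2 -0.35 ± 0.08, adjusted p = 0.059).

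TGF-beta and BMP genes moved both ways, with 5 of 35 members higher and 5 lower and a median of -0.03. HAMP encodes hepcidin, the liver hormone that closes the iron exporter, and its gene is a direct target of BMP signalling through SMAD proteins. It was at 20.1, 17.9 and 19.4 CPM under DMSO and 58.9, 59.5 and 74.5 CPM under PQY09, rising 3.36-fold (log2 1.75 ± 0.11, adjusted p = 0.00018), and PQY09 replicate 3 was the highest of the 6 libraries. ID2, an inhibitor of basic helix-loop-helix factors and a BMP target, was at 155, 127 and 138 CPM under DMSO and 215, 203 and 243 CPM under PQY09 and rose 1.58-fold (log2 0.66 ± 0.1, adjusted p = 0.0094). ID3 (log2 0.63 ± 0.11, adjusted p = 0.02; lost in 5 of 9 refits, adjusted p up to 0.09), ID1 (log2 0.41 ± 0.08, adjusted p = 0.04; lost in 7 of 9 refits, adjusted p up to 0.15) and SMAD7 (log2 0.58 ± 0.11, adjusted p = 0.026; lost in 5 of 9 refits, adjusted p up to 0.11), the inhibitory SMAD, rose less. SMAD6 (log2 0.17 ± 0.1, adjusted p = 0.48) and ATOH8 (log2 0.93 ± 0.31, adjusted p = 0.17), further BMP targets, were not called. On the TGF-beta side the receptors TGFBR3 (log2 -0.96 ± 0.12, adjusted p = 0.0039) and TGFBR2 (log2 -0.51 ± 0.07, adjusted p = 0.008), the ligand TGFB1 (log2 -0.45 ± 0.09, adjusted p = 0.033; lost in 7 of 9 refits, adjusted p up to 0.12) and the activin subunit INHBE (log2 -0.75 ± 0.07, adjusted p = 0.00095) fell. TGFB1 overlaps several other genes in the annotation, so its counts are uncertain.

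WNT and related genes gave fewer calls. DKK1, a secreted WNT inhibitor, was at 80.2, 79.3 and 87.9 CPM under DMSO and 53, 58.3 and 54 CPM under PQY09 and fell 1.5-fold (log2 -0.58 ± 0.07, adjusted p = 0.0028). NKD1 (log2 -0.38 ± 0.05, adjusted p = 0.0059) and AXIN2 (log2 -0.39 ± 0.06, adjusted p = 0.0085; lost without PQY09 replicate 1, adjusted p up to 0.052), which are feedback inhibitors and standard targets of beta-catenin, fell as well. These were the 3 calls among 26 members, and 6 of the 26 had a fold change above 0. HES6, of the NOTCH list, rose 1.81-fold (log2 0.85 ± 0.1, adjusted p = 0.003), from 12.5, 14 and 14.7 CPM under DMSO to 25.4, 24.2 and 25 CPM under PQY09. KLF11, a TGF-beta-inducible repressor, rose 1.98-fold (log2 0.98 ± 0.13, adjusted p = 0.0053). SOCS3, the feedback inhibitor of IL6 and STAT3 signalling, was at 1.36, 1.44 and 1.52 CPM under DMSO and 3.37, 4.12 and 3.8 CPM under PQY09 and rose 2.61-fold (log2 1.39 ± 0.19, adjusted p = 0.0072). Among NFKB targets and chemokines ICAM1, an adhesion receptor for leukocytes, was at 209, 198 and 191 CPM under DMSO and 119, 115 and 120 CPM under PQY09 and fell 1.69-fold (log2 -0.76 ± 0.06, adjusted p = 0.00032). CCL20 fell 1.62-fold (log2 -0.7 ± 0.1, adjusted p = 0.011; lost without DMSO replicate 2 or PQY09 replicate 3, adjusted p up to 0.052). Of the 23 members of that list 3 fell and 1 rose, the chemokine CXCL8 (log2 0.56 ± 0.12, adjusted p = 0.049; lost in 9 of 9 refits, adjusted p up to 0.15). None of 35 interferon-stimulated genes was called by edgeR's quasi-likelihood test, where 1 was higher and 1 lower at an unadjusted p below 0.05 and DESeq2 called 0. With 2.85% of all genes called, a list of this size can hold 0 calls.

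Of 30 cholesterol synthesis and uptake genes 19 rose, and further lipid genes rose outside that list. ACSS2, which makes acetyl-CoA from acetate, was at 86.3, 81.3 and 88.6 CPM under DMSO and 261, 275 and 263 CPM under PQY09. It rose 3.12-fold (log2 1.64 ± 0.06, adjusted p = 1.2e-05), with the 3 libraries of each group close together; it overlaps GGT7 in the annotation. Fatty acid and triglyceride genes had 12 of 36 members higher and 2 lower (median 0.44), and 9 of the 14 calls were kept in every refit. FABP1, the liver fatty acid binding protein, was at 280, 284 and 305 CPM under DMSO and 576, 580 and 551 CPM under PQY09 and rose 1.96-fold (log2 0.97 ± 0.06, adjusted p = 0.00024). AGPAT2 (log2 0.87 ± 0.14, adjusted p = 0.013; lost without DMSO replicates 2 or 3 or PQY09 replicates 1 or 2, adjusted p up to 0.064), PNPLA3 (log2 0.71 ± 0.1, adjusted p = 0.0081) and DGAT1 (log2 0.45 ± 0.07, adjusted p = 0.016; lost without DMSO replicates 2 or 3 or PQY09 replicates 2 or 3, adjusted p up to 0.07), which build and remodel triglycerides, rose. PLIN2, which coats lipid droplets, went the other way. It was at 341, 355 and 353 CPM under DMSO and 253, 235 and 235 CPM under PQY09 and fell 1.45-fold (log2 -0.54 ± 0.05, adjusted p = 0.0015), the PQY09 libraries being below every DMSO library by a wide gap. Of 28 lipoprotein genes 5 rose and 1 fell (21.4% called, against 2.85% of all genes). APOC3, an inhibitor of lipoprotein lipase, was at 41, 34.6 and 34.6 CPM under DMSO and 62.5, 64.2 and 64.1 CPM under PQY09 and rose 1.73-fold (log2 0.79 ± 0.11, adjusted p = 0.0064). Its neighbours on chromosome 11, APOA4 (log2 0.67 ± 0.13, adjusted p = 0.032; lost in 7 of 9 refits, adjusted p up to 0.12) and APOA5 (log2 0.96 ± 0.2, adjusted p = 0.046; lost in 8 of 9 refits, adjusted p up to 0.16), rose. APOA1 (log2 0.18 ± 0.08, adjusted p = 0.34) and APOB (log2 -0.38 ± 0.19, adjusted p = 0.4) were not called.

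Some cytochrome P450 genes rose and some UGT2B genes fell. Of a list of 40 genes for cytochrome P450 enzymes and their electron donors, 7 were higher (median 0.4), and 6 of the 7 calls were kept in every refit. The 7 include CYB5A, cytochrome b5, which is an electron donor and no P450, and CYP51A1, which also belongs to the cholesterol synthesis genes. CYP3A5, a drug-oxidising enzyme, was at 13.1, 13.2 and 13.1 CPM under DMSO and 26.9, 27.2 and 31 CPM under PQY09. It rose 2.16-fold (log2 1.11 ± 0.08, adjusted p = 0.00031), with all DMSO libraries nearly equal. CYP3A7, the fetal liver form (chromosome 7, 99705036 to 99735196), was at 6.19, 6.97 and 8.43 CPM under DMSO and 18.5, 19.5 and 22.2 CPM under PQY09 and rose 2.79-fold (log2 1.48 ± 0.17, adjusted p = 0.0034); it overlaps a readthrough gene, and reads can be shared within the CYP3A cluster. CYP3A4 was close to the filter, at 0.265, 0.0365 and 0 CPM under DMSO and 0.43, 0.485 and 0.378 CPM under PQY09 (log2 2.13 ± 1.05, adjusted p = 0.38). CYP4F2, which hydroxylates vitamin K and fatty acids, was at 4.73, 4.5 and 4.14 CPM under DMSO and 11.9, 13.1 and 12.2 CPM under PQY09 and rose 2.79-fold (log2 1.48 ± 0.12, adjusted p = 4e-04). CYP19A1, which makes oestrogens from androgens, rose 1.98-fold (log2 0.98 ± 0.1, adjusted p = 0.0019), from 5.95, 6.91 and 7.16 CPM under DMSO to 13.1, 12.7 and 13.8 CPM under PQY09. CYP1A1, the usual target of the aryl hydrocarbon receptor, had 13.2, 6.97 and 11.9 CPM under DMSO and 24.5, 18.5 and 23.2 CPM under PQY09 and missed the threshold (log2 1.05 ± 0.24, adjusted p = 0.061).

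The 4 calls among 13 UGT genes, whose enzymes attach glucuronic acid to drugs, steroids and bilirubin, were all lower and all on chromosome 4. UGT2B10 (chromosome 4, 68815994 to 68832023), which conjugates nicotine and tricyclic amines, was at 53.2, 57.3 and 53 CPM under DMSO and 24.1, 27.8 and 24.5 CPM under PQY09. It fell 2.14-fold (log2 -1.1 ± 0.08, adjusted p = 0.00031), each PQY09 library lying far under the DMSO range. UGT2B4, which conjugates bile acids, was at 64.8, 60.3 and 63.7 CPM under DMSO and 39.5, 40.2 and 40.9 CPM under PQY09 and fell 1.57-fold (log2 -0.65 ± 0.07, adjusted p = 0.0018). UGT2B7 (log2 -0.34 ± 0.07, adjusted p = 0.035; lost in 6 of 9 refits, adjusted p up to 0.13) and UGT2B11 (log2 -0.98 ± 0.2, adjusted p = 0.044; lost in 8 of 9 refits, adjusted p up to 0.15) fell less firmly. UGT2A3, in the same family, was not called (log2 -0.03 ± 0.06, adjusted p = 0.87). The UGT2B genes resemble each other closely, so the counting could have split their reads.

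Other enzyme families that handle foreign and oxidised compounds had higher members. GSTA2, a glutathione transferase, was at 26.6, 25.4 and 24.9 CPM under DMSO and 50.6, 51.9 and 53.5 CPM under PQY09 and rose 2.03-fold (log2 1.02 ± 0.07, adjusted p = 0.00031). Its near-identical neighbour GSTA1 rose 1.63-fold (log2 0.7 ± 0.11, adjusted p = 0.011; lost without DMSO replicates 1 or 2, adjusted p up to 0.051), and reads may be shared between them. AKR1C2, an aldo-keto reductase of steroid metabolism, rose 1.62-fold (log2 0.7 ± 0.09, adjusted p = 0.0045), with the similar AKR1C1 (log2 0.51 ± 0.1, adjusted p = 0.03; lost in 6 of 9 refits, adjusted p up to 0.11). ALDH1A1, which makes retinoic acid from retinal, was at 824, 822 and 894 CPM under DMSO and 1250, 1210 and 1260 CPM under PQY09 and rose 1.47-fold (log2 0.55 ± 0.06, adjusted p = 0.0018). SULT2A1, the hydroxysteroid sulfotransferase, rose 1.35-fold (log2 0.44 ± 0.06, adjusted p = 0.0059). The efflux pump ABCC3 was at 55.4, 50.5 and 54.3 CPM under DMSO and 79.3, 76.7 and 78.7 CPM under PQY09 and rose 1.46-fold (log2 0.55 ± 0.06, adjusted p = 0.0014). Of 35 glutathione and NRF2 target genes 7 rose and 1 fell, but NQO1 (log2 0.05 ± 0.06, adjusted p = 0.77), GCLC (log2 -0.15 ± 0.05, adjusted p = 0.22) and SRXN1 (log2 0.07 ± 0.06, adjusted p = 0.66), which are standard NRF2 targets, were not called. HMOX1, which breaks down heme, rose 1.32-fold (log2 0.4 ± 0.06, adjusted p = 0.014; lost without DMSO replicates 2 or 3 or PQY09 replicates 1 or 3, adjusted p up to 0.07). SLC22A7, an organic anion transporter of the hepatocyte, was at 4.76, 4.89 and 4.39 CPM under DMSO and 12.1, 13.2 and 11.4 CPM under PQY09 and rose 2.62-fold (log2 1.39 ± 0.14, adjusted p = 0.0012). SLCO4C1, another organic anion transporter, was at 19.2, 19.4 and 19.2 CPM under DMSO and 46.3, 51.9 and 46.1 CPM under PQY09 and rose 2.49-fold (log2 1.32 ± 0.07, adjusted p = 0.00018), with 3 nearly equal DMSO libraries. Metallothioneins split: MT1F (log2 0.73 ± 0.11, adjusted p = 0.013; lost without DMSO replicates 1 or 2 or PQY09 replicates 1 or 3, adjusted p up to 0.062) was higher and MT2A (log2 -0.54 ± 0.11, adjusted p = 0.041; lost in 7 of 9 refits, adjusted p up to 0.14) lower.

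Of 30 plasma carriers and acute phase proteins 6 rose and 1 fell. The share called was 23.3%, with 20% for the clotting genes and 11.5% for the complement genes given below. Over all genes tested 2.85% were called, and 7.83% of those at 100 CPM or more. TF, which encodes transferrin, the iron carrier of plasma, was at 3560, 3350 and 3710 CPM under DMSO and 4920, 4810 and 4730 CPM under PQY09. It rose 1.36-fold (log2 0.44 ± 0.05, adjusted p = 0.002), every PQY09 library being above every DMSO library. AMBP, the precursor of alpha-1-microglobulin and bikunin, rose 1.32-fold (log2 0.4 ± 0.06, adjusted p = 0.0074). ITIH1, a heavy chain that bikunin is joined to, was at 2.68, 2.62 and 2.41 CPM under DMSO and 8.57, 7.07 and 8.39 CPM under PQY09 and rose 3.12-fold (log2 1.64 ± 0.14, adjusted p = 0.00074). ALB itself was called (log2 0.21 ± 0.04, adjusted p = 0.04; lost in 7 of 9 refits, adjusted p up to 0.14), at 6560, 6590 and 6590 CPM under DMSO and 7640, 7570 and 7600 CPM under PQY09. LYZ, which encodes lysozyme, was the member that fell: it was at 1000, 1360 and 1380 CPM under DMSO and 649, 487 and 613 CPM under PQY09, a fall of 2.14-fold (log2 -1.1 ± 0.15, adjusted p = 0.0072), with DMSO replicate 1 the lowest of its group. Clotting genes had 4 of 30 higher, led by F11 (log2 0.48 ± 0.06, adjusted p = 0.0052), and 2 lower, TFPI (log2 -0.39 ± 0.05, adjusted p = 0.0062) among them, the inhibitor of the tissue factor pathway. All 3 calls among 26 complement genes were higher, and none was kept in every refit: VTN (log2 0.36 ± 0.06, adjusted p = 0.015; lost without DMSO replicates 1 or 2 or PQY09 replicates 1 or 3, adjusted p up to 0.07), SERPING1 (log2 0.46 ± 0.09, adjusted p = 0.038; lost in 7 of 9 refits, adjusted p up to 0.15) and MASP2 (log2 0.38 ± 0.08, adjusted p = 0.045; lost in 9 of 9 refits, adjusted p up to 0.16). Of 33 iron and heme genes 6 rose, HAMP, TF and HMOX1 among them.

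Sugar uptake and glucose-responsive genes moved in both directions, 5 of 37 higher and 5 lower. TXNIP, which binds thioredoxin and holds back glucose uptake, was at 32.5, 36.6 and 33.9 CPM under DMSO and 14.6, 14.7 and 15 CPM under PQY09. It fell 2.32-fold (log2 -1.22 ± 0.07, adjusted p = 0.00018), with the 3 PQY09 libraries almost equal. Of the 5 genes of this list that fell, 4 have a promoter sequence, and TXNIP alone holds the FOXO site GTAAACA. Its promoter (GRCh38.p14, chr1:145996580-145996829, minus strand, 250 bases before the RefSeq start) holds this site, present in 2.98% of promoters, and 2 CCAAT boxes, present in 33%, which are capitals in the sequence. GTAAACA is not tied to falls: it also lay in the promoters of ELOVL6, KLB and JUNB, which rose, and of IGFBP6, which fell. In the JUNB sequence printed above it is not marked. The matches are not evidence of binding.
TXNIP: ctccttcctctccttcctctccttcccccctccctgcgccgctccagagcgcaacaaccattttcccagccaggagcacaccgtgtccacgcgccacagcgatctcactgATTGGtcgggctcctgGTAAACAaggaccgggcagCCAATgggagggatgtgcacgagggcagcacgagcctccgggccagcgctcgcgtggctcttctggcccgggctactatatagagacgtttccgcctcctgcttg

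FOXO1 fell 1.38-fold (log2 -0.46 ± 0.08, adjusted p = 0.018; lost in 6 of 9 refits, adjusted p up to 0.085). Whether this bears on TXNIP or on the genes below was not tested. IGFBP1, an insulin-like growth factor binding protein that insulin represses through FOXO factors, was at 85.7, 103 and 104 CPM under DMSO and 36.9, 26 and 35.7 CPM under PQY09 and fell 2.97-fold (log2 -1.57 ± 0.14, adjusted p = 0.00086), with no DMSO library near the PQY09 range. IGFBP6 (log2 -0.79 ± 0.1, adjusted p = 0.0055) fell as well, these being the 2 calls among 13 genes of the family. Of the glucose transporters SLC2A3 was at 152, 173 and 162 CPM under DMSO and 103, 94.9 and 91.3 CPM under PQY09 and fell 1.68-fold (log2 -0.75 ± 0.08, adjusted p = 0.0027). SLC2A1 fell 2.08-fold (log2 -1.06 ± 0.18, adjusted p = 0.017; lost without DMSO replicates 1 or 3 or PQY09 replicates 1 or 3, adjusted p up to 0.08), while SLC2A2, the liver form, rose (log2 0.4 ± 0.09, adjusted p = 0.048; lost in 9 of 9 refits, adjusted p up to 0.16). MLXIPL, the glucose-sensing factor ChREBP, rose (log2 0.34 ± 0.06, adjusted p = 0.022; lost in 6 of 9 refits, adjusted p up to 0.098), and so did its target PKLR (log2 0.47 ± 0.08, adjusted p = 0.015; lost without DMSO replicates 1 or 3 or PQY09 replicates 1 or 3, adjusted p up to 0.069). ARRDC4, a relative of TXNIP, fell (log2 -0.57 ± 0.12, adjusted p = 0.04; lost in 8 of 9 refits, adjusted p up to 0.15), and ARRDC3, a further relative, was at 10.8, 12.7 and 12 CPM under DMSO and 19.3, 19.7 and 17.8 CPM under PQY09 and rose 1.6-fold (log2 0.68 ± 0.1, adjusted p = 0.0089). CA9, a carbonic anhydrase and a standard target of hypoxia-inducible factor, was at 10.5, 12.2 and 10.7 CPM under DMSO and 3.87, 1.06 and 2.89 CPM under PQY09 and fell 4.26-fold (log2 -2.09 ± 0.41, adjusted p = 0.033; lost in 5 of 9 refits, adjusted p up to 0.1), the largest fall of a gene at 5 CPM or more. PQY09 replicate 2 was its lowest library. Hypoxia targets outside glycolysis had 4 of 26 lower, with BNIP3L (log2 -0.6 ± 0.08, adjusted p = 0.0074) and STC2 (log2 -0.45 ± 0.07, adjusted p = 0.0099), and 2 higher, including EPO (log2 0.61 ± 0.1, adjusted p = 0.018; lost in 6 of 9 refits, adjusted p up to 0.081).

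Several genes that supply amino acids or charge transfer RNAs fell. SLC7A11, which imports cystine in exchange for glutamate, was at 77.6, 103 and 85.9 CPM under DMSO and 36.5, 35 and 33.7 CPM under PQY09. It fell 2.53-fold (log2 -1.34 ± 0.1, adjusted p = 4e-04), with the DMSO libraries spread more widely than the PQY09 libraries. CTH, which makes cysteine from cystathionine, was at 16.6, 17.6 and 18.5 CPM under DMSO and 9.43, 9.91 and 9.88 CPM under PQY09 and fell 1.8-fold (log2 -0.85 ± 0.08, adjusted p = 0.0011). Of 37 serine, folate and transsulfuration genes, 9 fell and 3 rose, and 7 of these 12 calls were kept in every refit. SHMT2 (log2 -0.42 ± 0.06, adjusted p = 0.0058), PSAT1 (log2 -0.46 ± 0.06, adjusted p = 0.0081), GOT1 (log2 -0.45 ± 0.06, adjusted p = 0.0044) and GPT2 (log2 -0.44 ± 0.05, adjusted p = 0.0019) were among those that fell, and ASNS, the asparagine synthetase, fell 1.88-fold (log2 -0.91 ± 0.15, adjusted p = 0.017; lost without DMSO replicates 1 or 2 or 3 or PQY09 replicate 1, adjusted p up to 0.072). MAT1A, the S-adenosylmethionine synthetase of mature liver, was at 119, 133 and 131 CPM under DMSO and 200, 209 and 202 CPM under PQY09 and rose 1.59-fold (log2 0.67 ± 0.06, adjusted p = 0.00052), while MAT2A, the form of dividing cells, fell (log2 -0.35 ± 0.06, adjusted p = 0.015; lost in 5 of 9 refits, adjusted p up to 0.076). ALDH1L1, which oxidises formyl-tetrahydrofolate, rose 1.72-fold (log2 0.78 ± 0.08, adjusted p = 0.0013). PHGDH (log2 -0.12 ± 0.06, adjusted p = 0.35) and CBS (log2 0.01 ± 0.07, adjusted p = 0.98) were not called.

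The 7 calls among 24 cytosolic aminoacyl-tRNA synthetases were all lower, and 4 were kept in every refit. MARS1, for methionine, was at 212, 204 and 183 CPM under DMSO and 127, 127 and 133 CPM under PQY09 and fell 1.55-fold (log2 -0.63 ± 0.06, adjusted p = 0.0015); it overlaps DDIT3. GARS1, for glycine, was at 265, 260 and 290 CPM under DMSO and 192, 184 and 200 CPM under PQY09 and fell 1.41-fold (log2 -0.5 ± 0.06, adjusted p = 0.0034). CARS1 (log2 -0.51 ± 0.06, adjusted p = 0.0039) and YARS1 (log2 -0.36 ± 0.04, adjusted p = 0.0043) fell as well. None of the 17 mitochondrial synthetases was called by edgeR's quasi-likelihood test, 0 had an unadjusted p below 0.05, and DESeq2 called 0. At the 2.85% called over all genes, 0 of 17 is unremarkable. Whether the cytosolic and mitochondrial lists differ was not tested. Amino acid transporters had 4 of 35 lower, SLC7A1 (log2 -0.62 ± 0.08, adjusted p = 0.0041) among them, and 1 higher, SLC38A3 (log2 0.45 ± 0.08, adjusted p = 0.024; lost in 5 of 9 refits, adjusted p up to 0.1). Of the regulators, ATF4 (log2 -0.32 ± 0.26, adjusted p = 0.65), DDIT3 (log2 0.09 ± 0.21, adjusted p = 0.9) and TRIB3 (log2 -0.13 ± 0.08, adjusted p = 0.54) were not called, and PPP1R15A rose 1.44-fold (log2 0.53 ± 0.09, adjusted p = 0.016; lost without DMSO replicates 1 or 2 or PQY09 replicates 2 or 3, adjusted p up to 0.075).

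**Figure D3:**
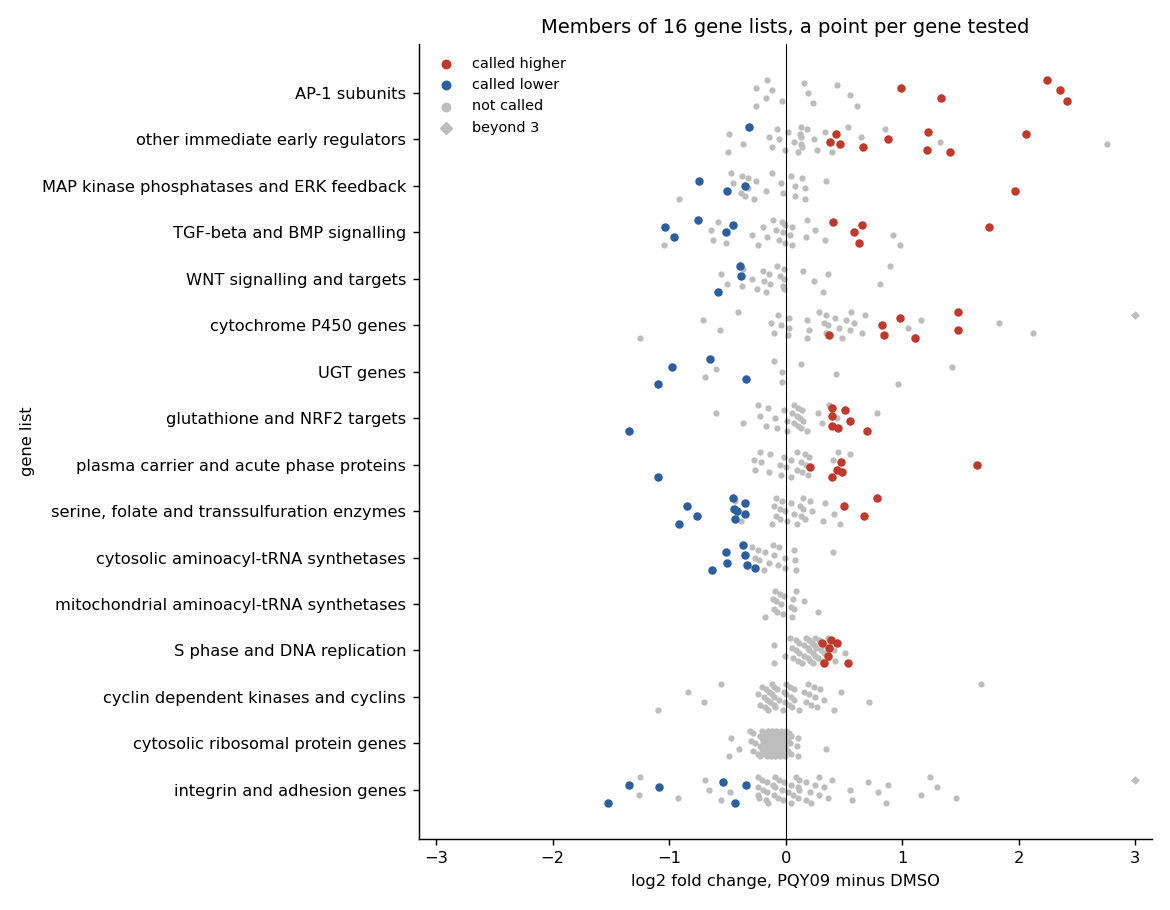
Each point is a tested member of 1 of 16 gene lists, placed by its log2 fold change (x axis); red and blue points were called higher and lower, and grey points were not called. All called genes of the P450 and S phase lists lie right of 0 and all called UGT, WNT, adhesion and cytosolic synthetase genes left of it, while TGF-beta and BMP genes lie on both sides.

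Some adhesion and matrix genes fell. Of 41 matrix, protease and inhibitor genes 3 were higher (VTN, GPC1 and SPP1) and 4 lower, with a median of 0. TNS4, a tensin that links integrins to signalling, was at 42.1, 40.5 and 35.6 CPM under DMSO and 14.1, 16.9 and 15.7 CPM under PQY09. It fell 2.53-fold (log2 -1.34 ± 0.11, adjusted p = 0.00062), with a clear gap between the groups. LOX, which crosslinks collagen, was at 45.2, 53.5 and 52.2 CPM under DMSO and 24, 21 and 21.8 CPM under PQY09 and fell 2.26-fold (log2 -1.18 ± 0.1, adjusted p = 0.00076). CLDN1, a tight junction protein, fell (log2 -0.54 ± 0.05, adjusted p = 0.001), as did TGM2 (log2 -0.51 ± 0.06, adjusted p = 0.0046), a crosslinking transglutaminase. All 6 calls among 62 integrin and adhesion genes were lower, and 2 of them were kept in every refit. The share called was 9.68%, against 2.85% of all genes. KRT18, a keratin of simple epithelia, was at 560, 560 and 583 CPM under DMSO and 374, 366 and 373 CPM under PQY09 and fell 1.53-fold (log2 -0.61 ± 0.06, adjusted p = 0.00092); KRT23 fell (log2 -0.77 ± 0.08, adjusted p = 0.0013). Collagen genes differed in direction from these, the 4 calls among 25 (16%) being higher. COL2A1, the collagen of cartilage, was at 19.9, 20.9 and 20.2 CPM under DMSO and 30.4, 31.1 and 30.3 CPM under PQY09 and rose 1.5-fold (log2 0.59 ± 0.07, adjusted p = 0.0041). COL16A1 (log2 0.51 ± 0.07, adjusted p = 0.0081) and COL9A2 (log2 0.49 ± 0.07, adjusted p = 0.0081) rose too. PCOLCE, which speeds the trimming of procollagen, was at 11.9, 11.8 and 10.9 CPM under DMSO and 32, 31.7 and 38.1 CPM under PQY09 and rose 2.94-fold (log2 1.56 ± 0.12, adjusted p = 0.00036). The fibroblast and stellate markers sit in the summed marker list given above, which spanned 86.9 to 102 CPM under DMSO and 94 to 106 CPM under PQY09. That sum pools them with other cell types.

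Transcripts of the cyclin dependent kinases did not pass the threshold. Of 48 kinases and cyclins edgeR's quasi-likelihood test called 0, with 6 higher and 3 lower at an unadjusted p below 0.05, and DESeq2 called 1. With 2.85% of all genes called, few calls would fall among 48 genes in any case. CDK1 was at 48.8, 57.1 and 50.8 CPM under DMSO and 67.4, 61.2 and 58.3 CPM under PQY09 (log2 0.25 ± 0.08, adjusted p = 0.16). CDK2 (log2 0.19 ± 0.13, adjusted p = 0.54), CDK5 (log2 0.3 ± 0.1, adjusted p = 0.16), CDK7 (log2 -0.05 ± 0.09, adjusted p = 0.85) and CDK9 (log2 0 ± 0.07, adjusted p = 0.99) were not called either. CDKN2B, which encodes the inhibitor p15, was at 7.1, 8.1 and 7.05 CPM under DMSO and 3.51, 3.88 and 4.02 CPM under PQY09 and fell 1.95-fold (log2 -0.96 ± 0.13, adjusted p = 0.0061); it overlaps an antisense gene. CABLES2, whose product is thought to bind cyclin dependent kinases, rose 1.84-fold (log2 0.88 ± 0.07, adjusted p = 0.00034), from 28.2, 26.3 and 25.4 CPM under DMSO to 47.1, 50.4 and 49.7 CPM under PQY09. Of 45 S phase and replication genes 7 rose and 42 had a fold change above 0 (median 0.24). These rises were small. CHAF1A, a histone chaperone at the fork, was at 67.6, 72.4 and 72.9 CPM under DMSO and 90.8, 95.8 and 88.4 CPM under PQY09 and rose 1.29-fold (log2 0.37 ± 0.06, adjusted p = 0.011; lost without PQY09 replicate 2, adjusted p up to 0.051). GINS2 (log2 0.33 ± 0.06, adjusted p = 0.022; lost in 6 of 9 refits, adjusted p up to 0.099) and E2F1 (log2 0.36 ± 0.07, adjusted p = 0.037; lost in 8 of 9 refits, adjusted p up to 0.14) rose, and each of the 7 calls was lost in at least 1 refit. HMMR (log2 0.33 ± 0.06, adjusted p = 0.018; lost in 6 of 9 refits, adjusted p up to 0.086) was the 1 call among 40 G2 and mitosis genes. PPM1D (log2 0.38 ± 0.07, adjusted p = 0.028; lost in 6 of 9 refits, adjusted p up to 0.11) was the 1 call among 26 GADD45 and p53 target genes. The shares called in these last lists, 2.5% and 3.85%, lie near the 2.85% of all genes.

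The large housekeeping families showed few or no calls by edgeR's test, which called 2.85% of all genes. EdgeR's test called 0 of 80 cytosolic ribosomal protein genes, with 0 higher and 10 lower at an unadjusted p below 0.05 and 2 called by DESeq2; their median was -0.09. It called 0 of 78 mitochondrial ribosomal protein genes (2 higher and 4 lower unadjusted, 2 by DESeq2), 0 of 45 proteasome genes (1 higher and 4 lower unadjusted, 1 by DESeq2) and 0 of 87 nuclear respiratory chain genes (2 higher and 1 lower unadjusted, 0 by DESeq2). Ribosome biogenesis genes had 0 calls of 46, with 9 lower at an unadjusted p below 0.05 and 3 called by DESeq2. Mitochondrially encoded genes had 1 call of 37, with 0 higher and 13 lower unadjusted and 9 lower by DESeq2 (median -0.2). Endoplasmic reticulum chaperone and unfolded protein response genes had 1 of 34, with 0 higher and 10 lower unadjusted and 7 lower by DESeq2. Translation initiation and elongation factors had 4 of 114, with 5 higher and 20 lower unadjusted. DESeq2 called 2 of these higher and 11 lower. The lean in direction was not tested. Of 460 genes named ZNF, 3 were called. Of 77 cytosolic chaperones 3 rose and 2 fell. HSPA1A, a stress-inducible chaperone, was at 130, 127 and 141 CPM under DMSO and 229, 217 and 232 CPM under PQY09 and rose 1.7-fold (log2 0.77 ± 0.06, adjusted p = 0.00052), and HSPA1B rose 1.75-fold (log2 0.8 ± 0.07, adjusted p = 0.00052), but their near-identical sequences can share reads. MAP1LC3B, an autophagosome protein, was at 79.2, 88.6 and 91.1 CPM under DMSO and 141, 140 and 147 CPM under PQY09 and rose 1.65-fold (log2 0.72 ± 0.07, adjusted p = 0.001). NEU1, the lysosomal sialidase, rose 1.55-fold (log2 0.63 ± 0.06, adjusted p = 0.0012).

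Several of the largest rises belong to genes known mainly from other tissues. IL21R, the receptor for interleukin 21 on lymphocytes (chromosome 16, 27402174 to 27452042), was at 1.31, 1.62 and 1.43 CPM under DMSO and 6.93, 7.14 and 6.43 CPM under PQY09. It rose 4.7-fold (log2 2.23 ± 0.17, adjusted p = 0.00036), with tight groups on either side of a wide gap. PLA2G3, a secreted phospholipase, was at 2.15, 2.15 and 2.44 CPM under DMSO and 9.01, 8.85 and 10.3 CPM under PQY09 and rose 4.17-fold (log2 2.06 ± 0.2, adjusted p = 0.0011). FABP3, the fatty acid binding protein of heart muscle, was at 1.68, 1.85 and 1.66 CPM under DMSO and 4.88, 5.12 and 7.07 CPM under PQY09 and rose 3.28-fold (log2 1.72 ± 0.2, adjusted p = 0.0029), with PQY09 replicate 3 the highest. SV2A, a glycoprotein of synaptic vesicles, was at 7.15, 7.32 and 7.74 CPM under DMSO and 19.2, 21.5 and 20.4 CPM under PQY09 and rose 2.75-fold (log2 1.46 ± 0.09, adjusted p = 0.00018). ACTA1, the actin of skeletal muscle, was at 4.31, 4.85 and 4.38 CPM under DMSO and 10.9, 9.98 and 13 CPM under PQY09 and rose 2.5-fold (log2 1.32 ± 0.13, adjusted p = 0.0013). Of the 16 markers of other cell types 10 were tested, with log2 fold changes from -0.96 to 1.12. Their sum, given above, overlapped between the groups, but it pools unlike cell types. Whether other cells contributed to these rises was not tested.

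**Figure D4:**
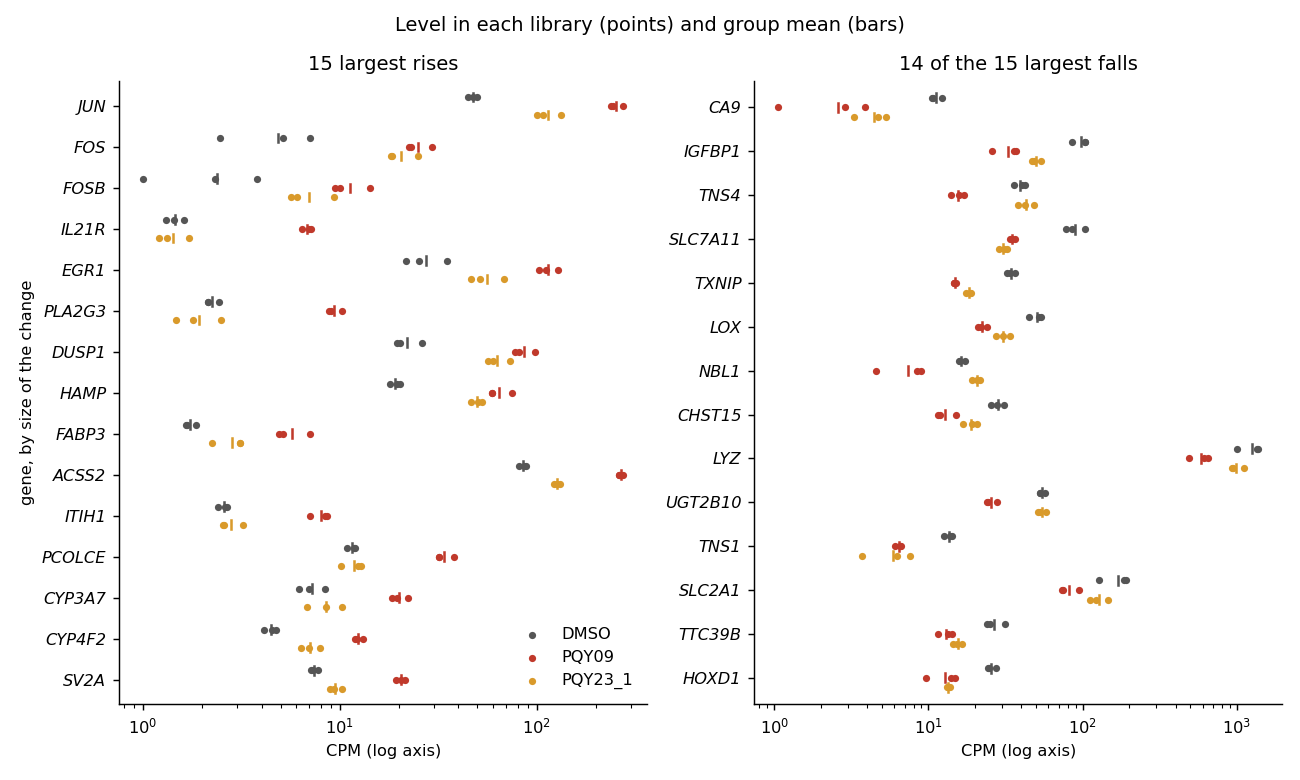
Points give the CPM of each library (log axis) and short bars the mean of 3 libraries, for the 15 largest rises (left) and 14 of the 15 largest falls (right) at 5 CPM or more, in DMSO (grey), PQY09 (red) and PQY23_1 (gold). These 29 genes were chosen with no overlap of DMSO and PQY09 points as a condition. The gold points lie beside either group depending on the gene.

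Falls with no list of their own included NBL1, CHST15, TTC39B and HOXD1. CHST15, a sulfotransferase for chondroitin, was at 27.9, 30.9 and 25.5 CPM under DMSO and 15, 11.8 and 11.6 CPM under PQY09 and fell 2.19-fold (log2 -1.13 ± 0.13, adjusted p = 0.0031). TTC39B was at 25, 31.3 and 24 CPM under DMSO and 13.3, 14.3 and 11.6 CPM under PQY09 and fell 2.05-fold (log2 -1.03 ± 0.13, adjusted p = 0.0041). HOXD1, a homeobox factor, was at 24.8, 24.5 and 27.4 CPM under DMSO and 14.8, 9.68 and 14 CPM under PQY09 and fell 1.99-fold (log2 -0.99 ± 0.15, adjusted p = 0.011), with PQY09 replicate 2 the lowest. NBL1, a secreted BMP antagonist, fell 2.23-fold (log2 -1.16 ± 0.22, adjusted p = 0.03; lost in 6 of 9 refits, adjusted p up to 0.089), and it overlaps MICOS10.

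Called genes that hold the most counts moved little. MT-RNR2, the large ribosomal RNA of mitochondria, was at 14400, 13300 and 14400 CPM under DMSO and 10800, 11100 and 12600 CPM under PQY09 and fell 1.22-fold (log2 -0.29 ± 0.06, adjusted p = 0.048; lost in 8 of 9 refits, adjusted p up to 0.16). EEF2, a translation elongation factor, fell (log2 -0.21 ± 0.04, adjusted p = 0.031; lost in 7 of 9 refits, adjusted p up to 0.13). SPP1, which encodes osteopontin, was at 2890, 2430 and 2430 CPM under DMSO and 3250, 3220 and 3500 CPM under PQY09 and rose 1.29-fold (log2 0.36 ± 0.08, adjusted p = 0.048; lost in 7 of 9 refits, adjusted p up to 0.16). SCD, the stearoyl-CoA desaturase, rose 1.55-fold (log2 0.64 ± 0.04, adjusted p = 0.00028), and AKR1C1 1.43-fold. As a description, the genes called higher took 4.02% ± 0.0299 of all counts under DMSO and 5.79% ± 0.0203 under PQY09 (SD, n = 3), and those called lower 4% ± 0.0126 and 3.07% ± 0.0648. The genes were picked by their calls in these same libraries. The gap therefore follows from that choice, and the SDs are no measure of an independent effect.

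Noncoding genes were called rarely: of 956 LINC and antisense genes 4 were higher and 6 lower. HNF4A-AS1, antisense to the liver factor HNF4A, was at 2.3, 2.28 and 2.03 CPM under DMSO and 5.73, 5.24 and 6.03 CPM under PQY09 and rose 2.57-fold (log2 1.36 ± 0.2, adjusted p = 0.0087), while HNF4A was not called (log2 0.29 ± 0.1, adjusted p = 0.17). Whether the counting used strand is not given in the sources used here, so reads of the pair cannot be told apart. LINC02119 was at 5.23, 5.59 and 4.77 CPM under DMSO and 2.71, 2.6 and 2.76 CPM under PQY09 and fell 1.93-fold (log2 -0.95 ± 0.12, adjusted p = 0.0055). The pseudogene HSD17B7P2 rose 1.99-fold (log2 0.99 ± 0.11, adjusted p = 0.0029), and it resembles HSD17B7, a gene of cholesterol synthesis that was also higher, so its reads are uncertain. AC023509 stood at 0 CPM in each DMSO and each PQY23_1 library and at 37.2, 81 and 51.1 CPM under PQY09 (adjusted p = 0.0021). It overlaps PCBP2, at 493, 429 and 457 CPM under DMSO and 423, 341 and 424 CPM under PQY09, and PRR13, and no fold is given because reads of the 3 genes may have been assigned differently between libraries. SLX1A-SULT1A3, a readthrough gene, varied from 9.84 to 37.5 CPM within the PQY09 group and overlaps SULT1A3, which ran from 33.6 to 113 CPM there.

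Some regulators varied too widely between libraries for a small change to be detectable. NFE2L2, the NRF2 gene, was at 225, 217 and 49 CPM under DMSO and 233, 54.8 and 206 CPM under PQY09, and CDKN1A, the p21 gene, at 91.2, 20.8 and 89.8 CPM under DMSO and 113, 33.2 and 123 CPM under PQY09. For each of these genes 1 DMSO and 1 PQY09 library lay far under the rest, and neither was called (log2 0.01 ± 0.74, adjusted p = 1 and log2 0.41 ± 0.71, adjusted p = 0.86). MYC was at 24, 26.4 and 11.6 CPM under DMSO and 10.8, 21.3 and 24 CPM under PQY09 (log2 -0.15 ± 0.39, adjusted p = 0.92). PTPN1, a phosphatase of insulin signalling, was at 107, 106 and 101 CPM under DMSO and 103, 105 and 109 CPM under PQY09 and was not called (log2 0.01 ± 0.06, adjusted p = 0.95). SREBF1 (log2 -0.22 ± 0.08, adjusted p = 0.21), AHR (log2 -0.25 ± 0.31, adjusted p = 0.79), NR1I2 (log2 0.08 ± 0.08, adjusted p = 0.73) and NR1I3 (log2 0.17 ± 0.39, adjusted p = 0.9) were not called.

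PQY09 and its derivative PQY23_1 were given at the same 50 µM, and 448 of 20157 genes (2.22%) differed between them by the same test, 202 higher under PQY09 (1%) and 246 lower (1.22%). With library totals in place of TMM scaling the split was 297 higher and 195 lower. The count fell to 222, 240 and 275 without PQY09 replicate 1, 2 or 3, and to 286 and 268 without PQY23_1 replicate 2 or 3. This is 1 pair of compounds, adjusted over all genes tested. The change in structure between them is not stated in those sources, and the genes named below were first called against DMSO with the same PQY09 libraries, so the pair of comparisons is not independent. PQY23_1 values are listed as for the other groups.

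Of the 15 largest rises under PQY09, 11 were also higher than under PQY23_1, among them EGR1 and FABP3, whose calls were lost in 6 and 9 of the 9 refits without 1 library. IL21R, at 1.72, 1.2 and 1.33 CPM under PQY23_1, was in its DMSO range or close to it (PQY09 minus PQY23_1 log2 2.27, 95% interval 1.88 to 2.66, adjusted p = 0.00054). PLA2G3 was at 1.79, 1.47 and 2.5 CPM under PQY23_1 (log2 2.29, 95% interval 1.84 to 2.74, adjusted p = 0.00087). PCOLCE (log2 1.53, 95% interval 1.26 to 1.8, adjusted p = 6e-04), ITIH1 (log2 1.52, 95% interval 1.2 to 1.85, adjusted p = 0.0012) and SV2A (log2 1.1, 95% interval 0.89 to 1.31, adjusted p = 8e-04) were higher under PQY09 too. JUN lay between the other groups, at 100, 108 and 133 CPM under PQY23_1 (log2 1.15, 95% interval 0.91 to 1.4, adjusted p = 0.0012). For FOS, at 18.3, 18.2 and 24.9 CPM under PQY23_1, no difference was called and the interval was wide (log2 0.28, 95% interval -0.45 to 1.02, adjusted p = 0.77). FOSB was not called either (log2 0.68, 95% interval -0.28 to 1.64, adjusted p = 0.52). HAMP, at 50.5, 46.2 and 52.7 CPM under PQY23_1, differed by at most 0.6 in its interval (log2 0.37, 95% interval 0.13 to 0.6, adjusted p = 0.13), and DUSP1 was likewise not called (log2 0.44, 95% interval 0.11 to 0.77, adjusted p = 0.2). The unadjusted intervals of HAMP and DUSP1 lie above 0, so the missing calls do not show equal levels under the compounds. COL2A1 was at 8.5, 8.94 and 9.63 CPM under PQY23_1, under both other groups (log2 1.76, 95% interval 1.59 to 1.93, adjusted p = 3.9e-05). SLCO4C1 was at 16.5, 17.9 and 17.9 CPM under PQY23_1 (log2 1.46, 95% interval 1.3 to 1.63, adjusted p = 6.9e-05), FABP1 at 272, 238 and 246 CPM under PQY23_1 (log2 1.18, 95% interval 1.03 to 1.32, adjusted p = 1e-04) and TF at 2690, 2620 and 2710 CPM under PQY23_1 (log2 0.85, 95% interval 0.74 to 0.96, adjusted p = 1e-04).

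Of 14 of the largest falls, 4 were lower under PQY09 than under PQY23_1. UGT2B10 was at 58.1, 52.9 and 51.4 CPM under PQY23_1, close to the DMSO range (log2 -1.09, 95% interval -1.27 to -0.9, adjusted p = 0.00052), and TNS4 at 38, 48.5 and 42.1 CPM under PQY23_1 (log2 -1.46, 95% interval -1.72 to -1.2, adjusted p = 6e-04). NBL1 (log2 -1.48, 95% interval -1.98 to -0.98, adjusted p = 0.011) and LYZ (log2 -0.77, 95% interval -1.11 to -0.43, adjusted p = 0.037; lost in 8 of 9 refits) made up the rest. CDKN2B was at 10.2, 8.4 and 10.7 CPM under PQY23_1, above every DMSO value (log2 -1.36, 95% interval -1.65 to -1.07, adjusted p = 0.0013), and LGALS1, which encodes galectin 1, at 163, 154 and 160 CPM under PQY23_1 against 88.9, 89.4 and 86.6 CPM under DMSO and 71.3, 72.3 and 75.1 CPM under PQY09 (log2 -1.12, 95% interval -1.24 to -1.01, adjusted p = 4e-05). By contrast no difference was called for SLC7A11 (log2 0.2, 95% interval -0.04 to 0.43, adjusted p = 0.43), TXNIP (log2 -0.31, 95% interval -0.47 to -0.15, adjusted p = 0.068), IGFBP1 (log2 -0.59, 95% interval -0.91 to -0.28, adjusted p = 0.073) or the serine and folate genes SHMT2 (log2 -0.03, 95% interval -0.15 to 0.1, adjusted p = 0.89) and PSAT1 (log2 0.15, 95% interval 0 to 0.29, adjusted p = 0.33), and their intervals give the sizes that these libraries leave possible. The unadjusted intervals of TXNIP and IGFBP1 lie below 0, so the missing calls do not show equal levels under the compounds. The cytosolic synthetase MARS1 had the narrow interval -0.16 to 0.14 around -0.01 (adjusted p = 0.96).

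**Figure D5:**
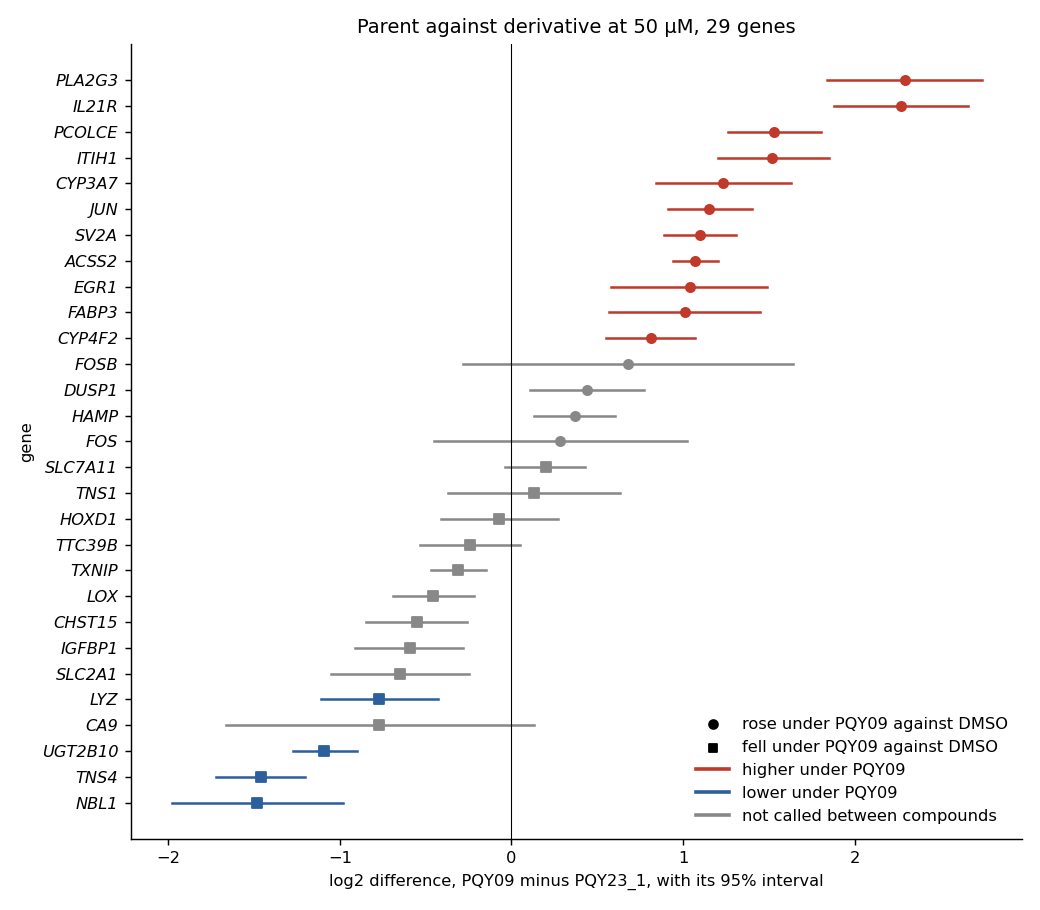
Points give the log2 difference PQY09 minus PQY23_1 (x axis) and lines its 95% interval, for the 15 genes that rose most (circles) and 14 of the 15 that fell most (squares) against DMSO. The intervals are not adjusted for the number of genes tested, while the calls are. Red and blue mark genes called between the compounds (11 higher, 4 lower), and the grey genes include FOS, DUSP1, HAMP, SLC7A11 and TXNIP.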

How the data were processed

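The measurements are RNA sequencing of 9 HepG2 libraries, 3 per group. Per the submitters' processing notes, the tools were HISAT2 2.0.4, cutadapt 1.9, StringTie 1.3.4d, DESeq2 and edgeR, named without roles, and the build was hg38. The authors deposited whole-number estimated counts per gene, whose low values pile up at 4 (10696 values at 4, 4024 at 3 and 2277 at 5), and FPKM values made by the authors. The estimated counts were tested as deposited. The reason for the pile is not given in the sources used here, and counts divided by 4 were tried as well.

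Genes passed edgeR's filter (minimum count 10, total 15, which is 0.104 CPM here) in 20157 of 60612 cases. EdgeR 4.0.16 (R 4.3.3) scaled the libraries by TMM and fitted a quasi-likelihood model with 1 mean per group over all 9 libraries. P-values were adjusted by Benjamini-Hochberg over all genes tested, and 0.05 was the threshold. CPM values are TMM-scaled, except the filter value and the marker sums, which use library totals. Alternatives used DESeq2 1.42.0, limma 3.58.1 on log2(FPKM + 1) and log2(FPKM + 0.1) with at least 1 FPKM in 3 libraries, other scalings and filters, a threshold of 0.01, a replicate block, and leaving out each library.

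The members and the 73 gene lists were chosen with earlier results of these data known. The named genes are the 15 largest rises and 15 largest falls at 5 CPM or more whose groups do not overlap, up to 4 called members per list by p, the 5 largest noncoding rises and falls, a panel of regulators, the 10 called genes with the most counts, and the 10 called genes with the lowest p between the compounds. Of these, 2 genes are not reported here. Other genes given with values were chosen after their values were seen. Promoter sequences are RefSeq's (GRCh38.p14), 250 bases before the start.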

Additional observations from a re-analysis of the deposited data

How the results depend on the processing

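Against DMSO, the 574 calls (358 higher, 216 lower) became 1464 (780 and 684) with DESeq2's test and 197 (119 and 78) at an adjusted p below 0.01. Leaving out 1 library gave 235 to 628 calls (144 to 375 higher, 91 to 253 lower). These refits have fewer samples, and libraries of PQY23_1 count among them because they share the estimate of spread. Of the 574 genes, 404 were also called from the 6 DMSO and PQY09 libraries alone, 569 by DESeq2 and 502 by limma on log2(FPKM + 1), each in the same direction. Between the compounds, the 448 calls (202 higher, 246 lower) became 1285 (588 and 697) with DESeq2's test, 188 (87 and 101) at 0.01 and 295 with 131 higher from the 6 libraries of that contrast. Limma gave 349 higher with FPKM + 1 and 332 with FPKM + 0.1. Leaving out 1 library gave 222 to 397 (97 to 180 higher, 125 to 223 lower). For each of these the cause was not tested.

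With the replicate number as a block, 342 genes were called against DMSO (210 higher, 132 lower) and 267 between the compounds (121 and 146). Same-numbered DMSO and PQY09 libraries showed little joint deviation (r of 0.0168, 0.023 and 0.0032), and not every library correlated best with its own number. No pairing by number was detected, but 3 libraries per group cannot exclude one.

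Lists of at least 10 tested members with over 20% called numbered 15. They numbered 35 with DESeq2's test, 8 with no filter on low counts, 26 with at least 1 CPM in 3 libraries, 27 and 25 with limma at FPKM + 1 and + 0.1, 4 at an adjusted p below 0.01, 6 with the block, and 4 to 17 without 1 library. The difference in mitochondrial share ranged from -0.744 to 0.295 percentage points without 1 library. No scaling tried moved the median of all genes by more than 0.022. Of 191 named genes called, none changed direction in any alternative that gave a value; limma gave values for 180 of them. Uncalled regulators near 0 did. Without 1 library NFE2L2 ranged from -0.42 to 0.42 (below 0 without DMSO replicate 3, PQY09 replicate 1 or 3, at -0.42, -0.33 and -0.19), and CDKN1A from -0.01 to 0.81. CDK9 ranged from -0.05 to 0.04, with -0.01 under DESeq2's size factors and its test, and 0 with at least 1 CPM or counts divided by 4. The range was -0.43 to 0.13 for MYC, -0.08 to 0.41 for NR1I3, -0.1 to 0.26 for DDIT3 and -0.01 to 0.03 for PTPN1.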
